A study of Mus musculus with 12 samples.

Results

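A set of 10 genes of sphingosine-1-phosphate (S1P) signalling was followed in sorted glomerular endothelial cells (GEC) of wild type (WT) and Alport syndrome (AS) mice. They were the receptors S1pr1, S1pr2, S1pr3 and S1pr4, the kinase Sphk1, the lyase Sgpl1, the exporter Spns2, the plasma carrier Apom and the phosphatases Plpp1 and Plpp3. They were chosen by gene name, and all 10 were listed both among the 17811 genes of the dim tdT table and among the 17521 genes of the bright tdT table. All mice were C57BL/6 animals aged 4 months that carried a Tek-Cre transgene and a tdTomato (tdT) reporter, so that cells with present or past Tek promoter activity became red, which besides endothelial cells can include cells of the blood lineage. The AS mice also lacked Col4a5, which encodes a collagen IV chain (α5) and is mutated in human X-linked Alport syndrome. Glomeruli were isolated by sieving and digested, and red cells were sorted into a dim and a bright population. RNA-seq was done on 3 WT and 3 AS mice with 1 dim tdT and 1 bright tdT library per mouse, which gave 12 libraries in 4 groups of 3.

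S1P is a lipid made inside cells when a sphingosine kinase phosphorylates sphingosine. Endothelial cells release it through Spns2, it circulates bound to apolipoprotein M or albumin, and it acts on a family of G protein-coupled receptors, of which S1pr1 is known for tightening the endothelial barrier and for guiding the exit of lymphocytes from tissues. The signal ends when phosphatases such as Plpp1 and Plpp3 remove the phosphate outside the cell or when Sgpl1 cleaves the lipid for good.

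Levels are given as CPM, the counts of a gene scaled to a common library total adjusting the 12 libraries by edgeR's TMM method, and, where genes are set against each other, as RPKM, which also divides by the kilobases of exon. Counts on genes ranged from 11440169 to 15074909 per library (median 13798656). In the dim tdT GEC Col4a5 had 439 to 877 counts in WT and 17 to 51 in AS. In the bright tdT GEC its counts were 69 to 158 in WT against 43 to 104 in AS, so that it separated the genotypes in the dim but not in the bright libraries. The label of the cells was set against marker genes. The 15 endothelial markers summed to 10989 to 19235 CPM in the bright and to 234 to 1388 CPM in the dim libraries, and none was at 0 in any library. The 18 leukocyte markers went the other way, with 9557 to 20848 CPM in the dim libraries and 57.7 to 157 CPM over the 15 listed in the bright ones. The leukocyte sum exceeded the endothelial sum in the dim library of all 6 mice, which at the RNA level goes against their label as endothelial cells. By flow cytometry, the study reports that nearly all sorted cells of both populations carried the endothelial protein Ehd3. The 16 proximal tubule markers were highest in both libraries of WT mouse 1 (8616 CPM dim, 3526 CPM bright), and among the AS mice in both libraries of mouse 2 (567 CPM dim, 701 CPM bright), against 61.2 to 76.5 CPM in the other AS libraries.

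Bright over dim gave the most calls among the S1P genes. In WT mice 7 of the 10 passed an adjusted p of 0.05 (quasi-likelihood test of edgeR, Benjamini-Hochberg adjustment over every gene in the fit), where 25.3% of all 14247 genes did. The 5 that were higher in the bright cells were S1pr3, Sphk1, Spns2, Plpp1 and Plpp3, and S1pr4 and Sgpl1 were lower (13.8% and 11.5% of all genes). In AS mice 9 of 10 passed, where 55.1% of 14052 genes did, with S1pr1 added to those that were higher and S1pr2 to those that were lower (28.6% and 26.5% of all genes). Apom did not pass in either genotype. The median log2 fold change of the 10 genes was 1.52 in WT and 2.70 in AS, beside -0.04 and 0.02 over all genes tested. Every bright library lay above every dim library for 5 of them in WT and 6 in AS (20.8% and 32.0% of all genes), and below for 3 in each genotype (21.0% and 30.2%). Of the endothelial markers 14 of 15 in WT and 15 of 15 in AS were higher in the bright cells, and of the leukocyte markers 15 of 15 tested were lower in both genotypes. Their part in the differences of the S1P genes was not tested.

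**Figure D1:**
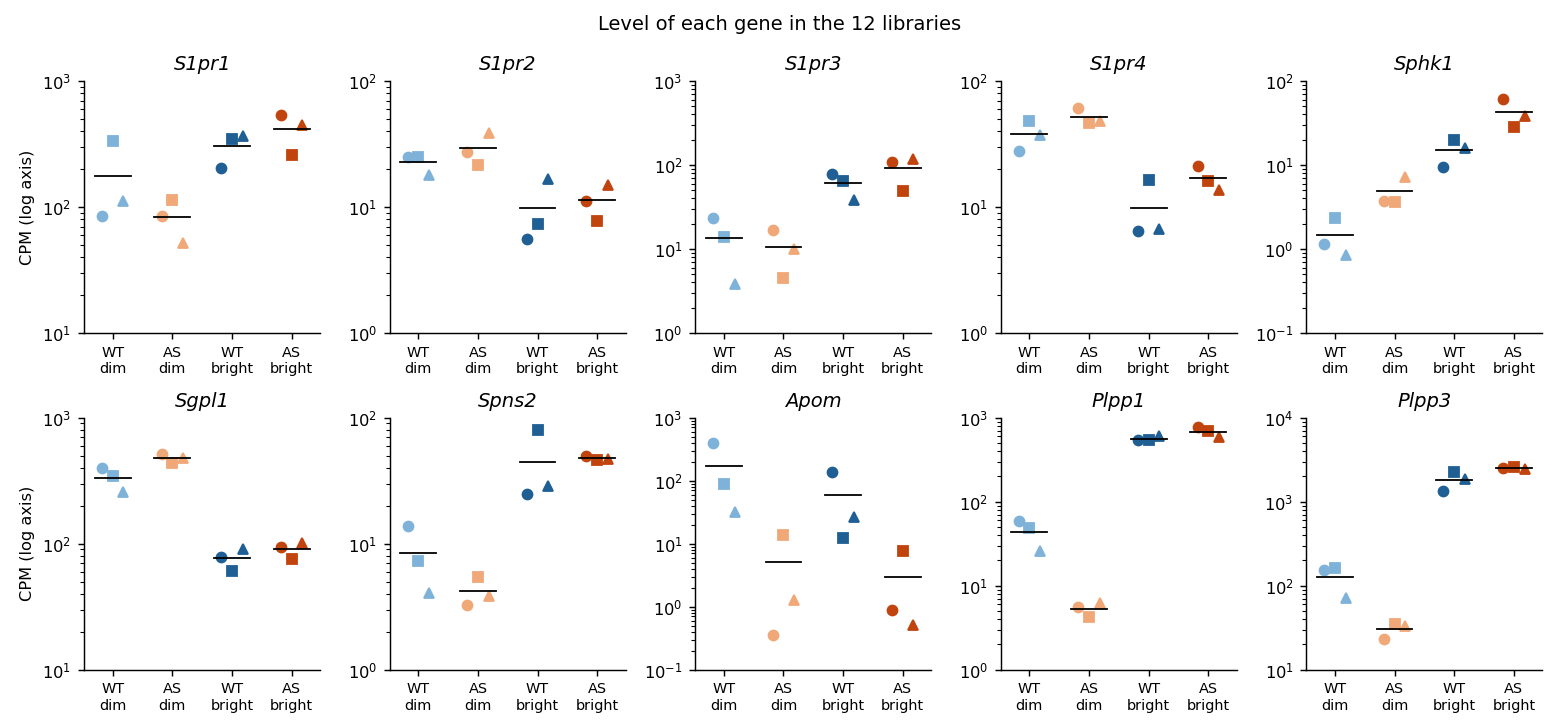
Level of each S1P gene in CPM (log axis, with its own range in each panel) by group; each symbol is 1 library, circle, square and triangle are replicates 1, 2 and 3, and the line is the mean of 3. Plpp1 spans 4.23 to 771 CPM with the AS dim libraries lowest, while Apom separates WT from AS in both subpopulations.

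S1pr1, the barrier receptor, had the most RPKM of the 4 receptors in 11 of the 12 libraries, all but the dim library of AS mouse 3. Its level was 205, 345 and 368 CPM in the WT bright libraries and 539, 257 and 450 CPM in the AS bright libraries. In the dim libraries it was 84.6, 333 and 112 CPM in WT and 85.0, 115 and 52.2 CPM in AS. The dim library of WT mouse 2 stood within the bright range, and the other dim libraries lay below all bright ones. Bright over dim gave a log2 fold change of 2.29 in AS (standard error 0.33, edgeR adjusted p = 0.000235), a 4.90-fold difference, and of 0.83 in WT, which did not pass (standard error 0.49, edgeR adjusted p = 0.254). Without the dim library of WT mouse 2 the WT value was 1.68 and passed (edgeR adjusted p = 0.0113). S1pr1 lies on chromosome 3 from 115710433 to 115715072, minus strand of GRCm38, and overlaps no other annotated gene.

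S1pr3, a receptor that couples to several classes of G protein, was 77.5, 65.3 and 38.5 CPM in the WT bright and 110, 49.7 and 117 CPM in the AS bright libraries. It was 23.3, 13.8 and 3.88 CPM in the WT dim and 16.8, 4.56 and 10.1 CPM in the AS dim libraries, all below every bright library. The log2 fold change of bright over dim was 2.21 in WT (standard error 0.55, edgeR adjusted p = 0.0179) and 3.11 in AS (standard error 0.45, edgeR adjusted p = 0.000216). In WT it was 2.81 without the dim library of mouse 1, and it missed the threshold without the dim library of mouse 2 or the bright library of mouse 1 or 2 (edgeR adjusted p = 0.0513 to 0.0565). The 10 mural and mesangial markers moved with it, from 69.5 to 216 summed CPM over the 8 listed in the dim libraries to 473 to 891 CPM in the bright ones. Their part in the result was not tested. S1pr3 (chromosome 13, 51408639 to 51422797, plus strand) lies opposite the noncoding Gm32834, and which strand was counted is not given in the sources used here.

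The promoters of S1pr3 and Plpp3, which were both higher in the bright cells, and of Apom, which was lower in AS dim cells, are shown as RefSeq gives them on GRCm38.p6, from 250 bases before to 50 after the start. The table held a promoter for 8 of the 10 genes, and S1pr1 and Plpp1 had none in it. In the first pair the capitals mark matches on either strand to CCNCNCCC, a motif of Krüppel-like factors (KLF), a family that includes flow-responsive regulators of endothelial cells. In Apom they mark the match to a motif of HNF1, its palindrome with 3 positions left free, a regulator of liver and proximal tubule genes. Both motifs were picked with the sequences in view.
S1pr3, chr13:51408368-51408667, plus strand: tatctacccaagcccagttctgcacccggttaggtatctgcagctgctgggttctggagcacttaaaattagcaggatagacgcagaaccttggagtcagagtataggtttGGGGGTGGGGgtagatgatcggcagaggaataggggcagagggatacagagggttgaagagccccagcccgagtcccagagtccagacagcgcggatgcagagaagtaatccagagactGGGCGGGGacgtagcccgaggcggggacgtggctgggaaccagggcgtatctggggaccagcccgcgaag
Plpp3, chr4:105157097-105157396, plus strand: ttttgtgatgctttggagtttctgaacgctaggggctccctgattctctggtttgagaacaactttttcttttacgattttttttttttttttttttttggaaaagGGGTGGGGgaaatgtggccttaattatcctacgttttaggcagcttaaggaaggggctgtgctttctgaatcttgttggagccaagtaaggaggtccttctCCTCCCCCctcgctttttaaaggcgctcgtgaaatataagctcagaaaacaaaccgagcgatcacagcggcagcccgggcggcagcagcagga
Apom, chr17:35131752-35132051, minus strand: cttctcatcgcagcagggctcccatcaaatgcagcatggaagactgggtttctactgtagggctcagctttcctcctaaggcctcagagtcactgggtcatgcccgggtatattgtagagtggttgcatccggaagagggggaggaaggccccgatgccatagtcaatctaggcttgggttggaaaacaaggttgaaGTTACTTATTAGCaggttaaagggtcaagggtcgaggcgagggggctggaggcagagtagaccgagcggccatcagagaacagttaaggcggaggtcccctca

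The KLF motif matched 3 times in the S1pr3 promoter, with the first pair of matches overlapping, and 2 times in the Plpp3 promoter. It was in the promoters of 5 of the 7 genes with a single listed promoter, and in 49.5% of all 32851 promoters of this length. Besides S1pr3 and Plpp3 these were Apom, where it is left in lower case, and Sgpl1 and S1pr2. The last 2 were lower in the bright cells, S1pr2 past the threshold in AS only. The promoters of Spns2, which was higher in the bright cells, and of S1pr4, which was lower, had no match. The HNF1 motif matched once in the Apom promoter, from 53 bases before the start, in none of the other 6 promoters, and in 0.0913% of all promoters. The positions left free in the HNF1 motif include those where the Apom letters depart from its palindrome. Its match in Apom was thus fixed by the choice of motif, and these matches are descriptions of the letters.

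S1pr4, known as a receptor of lymphocytes and other blood cells, ran opposite to S1pr3. It was 28.0, 47.9 and 37.5 CPM in the WT dim and 61.6, 46.4 and 48.4 CPM in the AS dim libraries, all above the bright libraries at 6.45, 16.3 and 6.71 CPM in WT and 21.3, 16.1 and 13.5 CPM in AS. The log2 fold change of bright over dim was -1.92 in WT (standard error 0.45, edgeR adjusted p = 0.0128) and -1.63 in AS (standard error 0.24, edgeR adjusted p = 0.000233). Without the bright library of WT mouse 3 the WT change was -1.69 and missed the threshold (edgeR adjusted p = 0.0593). The leukocyte markers were higher in the dim cells too, and S1pr4 amounted to 0.230% to 0.501% of their summed CPM in the dim and to 6.06% to 28.3% in the bright libraries. Their part in the result was not tested.

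S1pr2, a receptor known to oppose cell migration, was 17.9 to 25.1 CPM in the WT dim and 21.5 to 38.5 CPM in the AS dim libraries, and 5.57 to 16.8 CPM in the WT bright and 7.70 to 15.1 CPM in the AS bright libraries. Dim and bright libraries did not overlap in either genotype. Bright over dim gave a log2 fold change of -1.38 in AS (standard error 0.31, edgeR adjusted p = 0.00388) and of -1.15 in WT, which did not pass (standard error 0.47, edgeR adjusted p = 0.108). Without the bright library of WT mouse 3, at 16.8 CPM, the WT value was -1.75 and passed (edgeR adjusted p = 0.0396).

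Of the RPKM summed over the 4 receptors, S1pr1 made up 76.4% to 89.9% in the bright libraries of both genotypes. In the dim libraries its share was 58.0%, 80.6% and 66.2% in WT and 45.8%, 61.9% and 38.5% in AS. S1pr4 had the next largest share in the dim libraries, or in that of AS mouse 3 the largest, with 14.8% to 28.2% in WT and 32.0% to 45.6% in AS, against 2.09% to 6.52% in the bright ones. S1pr3 was second in every bright library, at 6.41% to 19.7%, and S1pr2 stayed at or below 1.56% there. The S1pr4 share did not overlap between WT and AS dim libraries, while none of the 4 receptors passed the test of AS over WT. In the same libraries the leukocyte markers were higher and the endothelial markers lower in AS (18073 to 20848 against 9557 to 16325, and 234 to 322 against 758 to 1388 summed CPM), and their part in the share was not tested. The remaining receptor gene, S1pr5, was listed in the dim table only, with 12.2 to 16.3 CPM in WT and 19.3 to 25.9 CPM in AS.

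**Figure D2:**
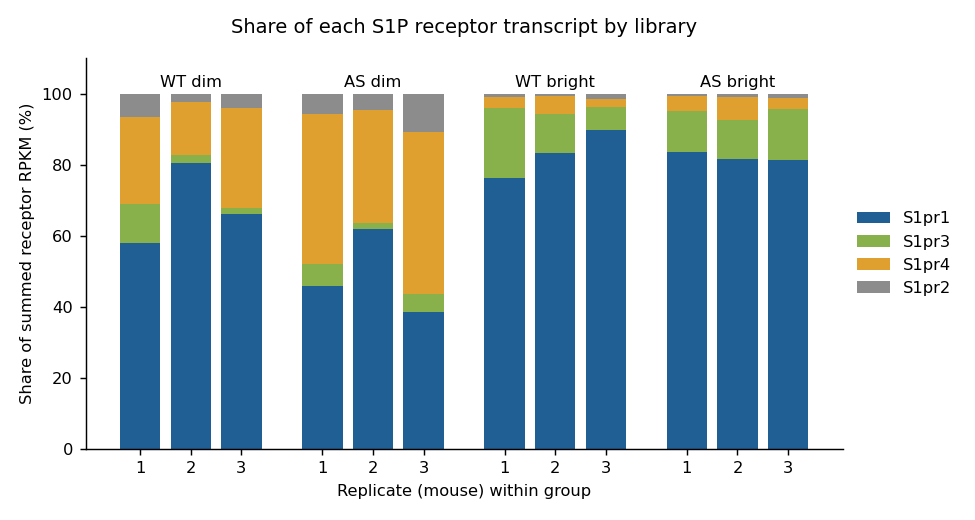
Share of each receptor in the RPKM summed over S1pr1 to S1pr4, as stacked bars for each of the 12 libraries, ordered by group and mouse. S1pr1 holds 76.4% to 89.9% in the bright libraries, and S1pr4 holds 32.0% to 45.6% in the AS dim libraries.

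Sphk1, the kinase that makes S1P, was low in the dim and higher in the bright cells, and in both subpopulations each AS library lay above each WT library. It had 1.14, 2.37 and 0.843 CPM (10 to 28 counts) in the WT dim and 3.75, 3.65 and 7.18 CPM (44 to 90 counts) in the AS dim libraries. It had 9.36, 20.1 and 15.8 CPM in the WT bright and 61.3, 28.7 and 38.7 CPM in the AS bright libraries. Bright over dim was 3.41 on the log2 scale in WT (standard error 0.58, edgeR adjusted p = 0.00271) and 3.13 in AS (standard error 0.38, edgeR adjusted p = 6.39e-05). AS over WT was 1.45 in the bright (standard error 0.36, edgeR adjusted p = 0.0731) and 1.70 in the dim cells (standard error 0.58, edgeR adjusted p = 0.107), and neither passed. DESeq2 and edgeR's likelihood ratio test put the bright change past the threshold (DESeq2 adjusted p = 0.00455, edgeR likelihood ratio adjusted p = 0.0119), and the range over the 14 alternatives was 0.00455 to 0.344. In the bright libraries the 8 podocyte markers (1380 to 1574 against 982 to 1257 summed CPM) and the leukocyte markers (115 to 157 against 57.7 to 111) were higher in AS too. Their part in the Sphk1 difference was not tested. Sphk1 lies opposite the antisense gene Gm29292 (chromosome 11, 116530925 to 116536674, plus strand), so that its counts may include that gene's.

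Sgpl1, the lyase that ends S1P signalling by cleavage, was higher in the dim than in the bright cells, the other direction from Sphk1. It was 396, 345 and 258 CPM in the WT dim and 518, 434 and 483 CPM in the AS dim libraries, against 61.2 to 90.3 CPM in the WT bright and 75.0 to 101 CPM in the AS bright libraries. The log2 fold change of bright over dim was -2.06 in WT (standard error 0.27, edgeR adjusted p = 0.000562) and -2.42 in AS (standard error 0.18, edgeR adjusted p = 1.87e-06). It passed in all 13 alternatives in each genotype. Per kilobase, Sgpl1 exceeded Sphk1 by 113 to 270 times in the WT dim and 52.2 to 107 times in the AS dim libraries. In the bright libraries the ratio was 2.37 to 6.55 in WT and 1.19 to 2.03 in AS, so that the AS ratios lay below the WT ratios in both subpopulations. In the dim cells Sgpl1 was higher in all 3 AS than in all 3 WT libraries, and the log2 fold change of 0.49 missed the threshold (standard error 0.20, edgeR adjusted p = 0.170), and the leukocyte markers were higher there too (18073 to 20848 against 9557 to 16325 summed CPM). Their part in this difference was not tested, and in these bulk samples fewer cells of a type and less RNA per cell cannot be told apart.

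Spns2, the exporter of S1P from endothelial cells, was 24.7, 79.2 and 28.7 CPM in the WT bright and 49.6, 46.4 and 47.3 CPM in the AS bright libraries. The WT bright library of mouse 2 stood apart, and the AS bright libraries had an SD of 1.66 CPM. In the dim libraries Spns2 was 13.9, 7.27 and 4.05 CPM in WT and 3.25, 5.47 and 3.83 CPM in AS. The log2 fold change of bright over dim was 2.44 in WT (standard error 0.58, edgeR adjusted p = 0.0141) and 3.51 in AS (standard error 0.26, edgeR adjusted p = 1.77e-06). Without the bright library of WT mouse 2 the WT value was 1.75 and did not pass (edgeR adjusted p = 0.0590). Its 3′ end overlaps Mybbp1a on the opposite strand (Spns2 on chromosome 11, 72451638 to 72489904, minus strand).

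**Figure D3:**
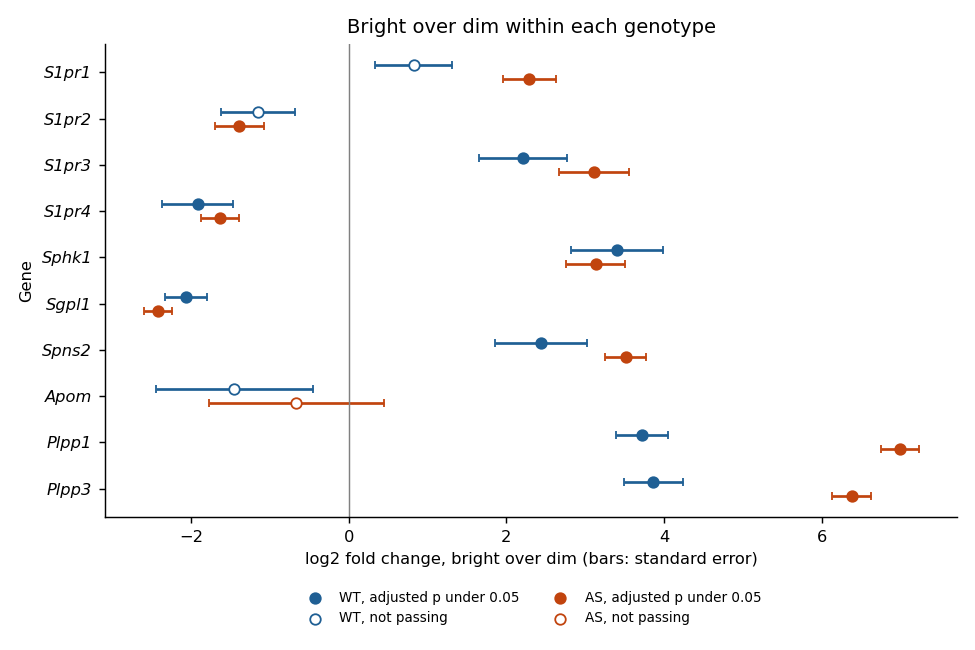
Log2 fold change of bright over dim for each S1P gene in WT (blue) and AS (red), with bars for the standard error; filled points passed an adjusted p of 0.05. Plpp1 and Plpp3 reach 6.99 and 6.38 in AS against 3.72 and 3.87 in WT, and Sgpl1, S1pr4 and S1pr2 lie below 0.

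Between genotypes, 0 of the 10 genes passed in the bright cells by edgeR's quasi-likelihood test, where 0.452% of 14396 genes did (0.188% higher, 0.264% lower). At an unadjusted p under 0.05, 2 did, Sphk1 and Apom. The share of all genes at that unadjusted threshold is not given here or for the lists below. DESeq2 and the likelihood ratio test each called both of them, and 1117 and 827 of all genes. All 3 AS bright libraries were above all 3 WT libraries for Sphk1 and Plpp3 (15.6% of all genes) and below for Apom (9.08%). In the dim cells 3 of 10 passed, Apom, Plpp1 and Plpp3, all lower in AS, where 8.63% of 14637 genes passed (2.21% higher, 6.42% lower). AS and WT dim libraries did not overlap for these 3 (15.5% of all genes were lower without overlap), nor for Sphk1 and Sgpl1, which were higher (16.1%). The median log2 fold change of AS over WT for the 10 genes was 0.30 in the bright and -0.73 in the dim cells, beside -0.03 and -0.02 over all genes.

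**Figure D4:**
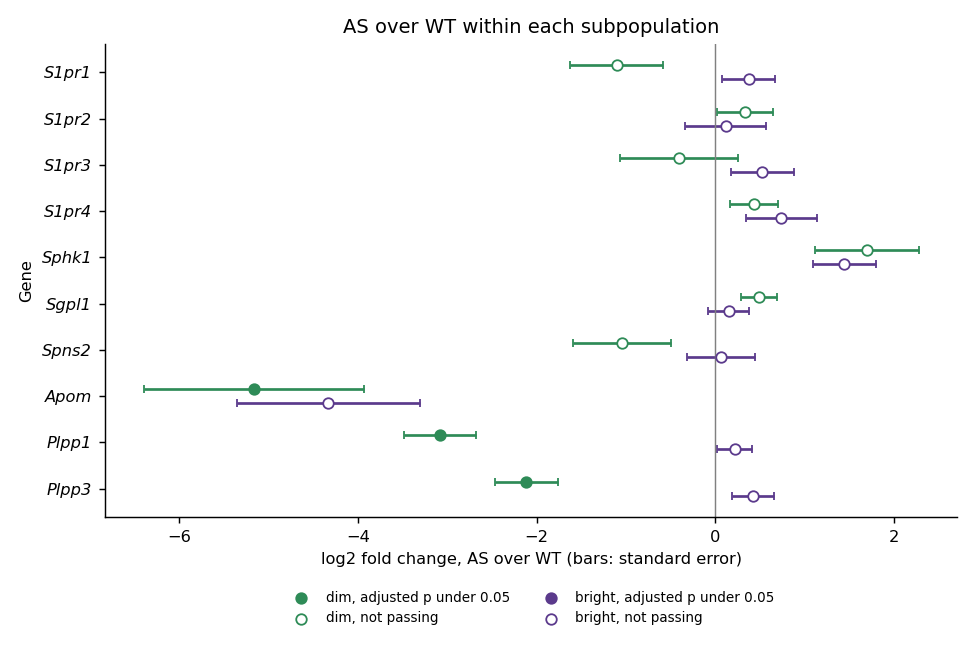
Log2 fold change of AS over WT for each S1P gene in the dim (green) and bright (purple) cells, with bars for the standard error; filled points passed an adjusted p of 0.05. Apom, Plpp1 and Plpp3 pass in the dim cells at -5.17, -3.08 and -2.12, and no gene passes in the bright cells.

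Apom, the lipocalin that carries S1P on high-density lipoprotein and that proximal tubule cells and hepatocytes are known to make, had the largest genotype difference of the 10 and the widest spread between mice. Its counts were 4504, 1049 and 375 in the WT dim libraries and 5, 164 and 16 in the AS dim libraries, or 395, 88.6 and 31.6 CPM against 0.353, 13.6 and 1.28 CPM. In the bright libraries its counts were 2160, 171 and 401 in WT against 12, 117 and 7 in AS, or 137, 12.2 and 26.4 CPM against 0.874, 7.64 and 0.510 CPM. WT and AS did not overlap in either subpopulation. The log2 fold change of AS over WT was -5.17 in the dim cells (standard error 1.23, edgeR adjusted p = 0.0420), and it passed in 7 of 14 alternatives (range of adjusted p 0.00476 to 0.153). It was -3.65 without the dim library of WT mouse 1 (edgeR adjusted p = 0.0638) and -7.82 without that of AS mouse 2 (edgeR adjusted p = 0.0424). It also missed the threshold without the dim library of WT mouse 2 (edgeR adjusted p = 0.0653), AS mouse 1 (edgeR adjusted p = 0.146) or AS mouse 3 (edgeR adjusted p = 0.153). In the bright cells the change of -4.33 did not pass (standard error 1.02, edgeR adjusted p = 0.0669). It was -4.81 and passed without the bright library of WT mouse 2 (edgeR adjusted p = 0.0452), and it ranged from -6.49 without that of AS mouse 2 to -2.67 without that of WT mouse 1.

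Apom was high in the libraries where the proximal tubule markers were high, though not in the same order throughout. In the dim cells their sum was 8616, 1995 and 1874 CPM in WT mice 1 to 3 and 76.5, 567 and 66.1 CPM in AS mice 1 to 3, and in the bright cells 3526, 559 and 883 CPM in WT and 75.6, 701 and 61.2 CPM in AS. WT mouse 1 was highest and AS mouse 2 highest of its genotype in both measures and both subpopulations. Apom made up 1.69% to 4.59% of the marker sum in WT dim, 2.18% to 3.88% in WT bright, 0.462% to 2.40% in AS dim and 0.833% to 1.16% in AS bright libraries. Of the markers, 8 of 15 tested passed as lower in AS dim cells and 0 of 16 in AS bright cells, with median log2 fold changes of -4.15 and -2.49 over those tested. In the bright cells 15 of the 16 had an unadjusted p under 0.05, and DESeq2 called 1 and the likelihood ratio test 0, beside 1117 and 827 of all genes. None of the 16 was at 0 in a WT library, and up to 2 were at 0 in an AS library. Their part in the Apom difference was not tested. Bright over dim, the log2 fold change of Apom was -1.45 in WT (standard error 0.995, edgeR adjusted p = 0.321), which was -1.48 and passed with the mouse as a block (edgeR adjusted p = 0.0443), and -0.66 in AS (standard error 1.11, edgeR adjusted p = 0.641).

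**Figure D5:**
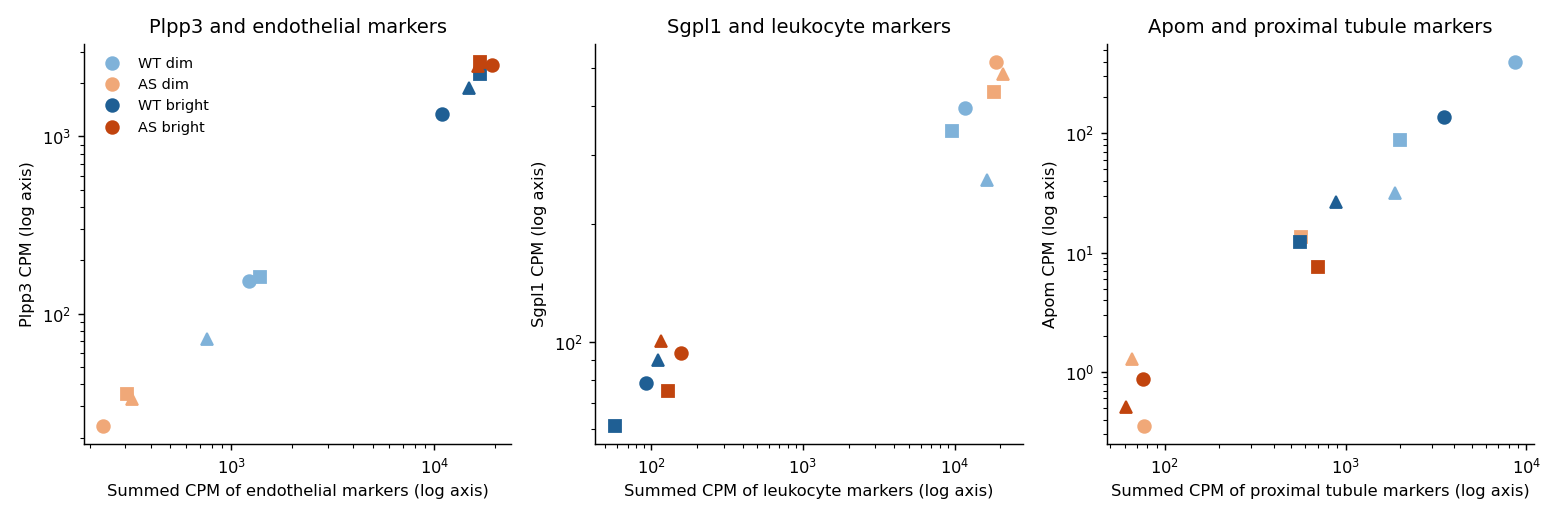
Plpp3, Sgpl1 and Apom in CPM (y, log axis) against the summed CPM of endothelial, leukocyte and proximal tubule markers (x, log axis) in the 12 libraries, coloured by group, with circle, square and triangle for replicates 1, 2 and 3. Plpp3 climbs with the endothelial sum through all 4 groups, Sgpl1 forms a dim and a bright cluster, and Apom runs along the proximal tubule sum with the libraries of WT mouse 1 at the top.

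Plpp1 and Plpp3, membrane phosphatases that face outward and remove the phosphate from S1P and from lysophosphatidic acid (LPA), had the largest differences between subpopulations. Plpp3 was 1340, 2241 and 1878 CPM in the WT bright and 2541, 2623 and 2480.2 CPM in the AS bright libraries, and 154, 161 and 71.7 CPM in the WT dim and 23.3, 35.3 and 32.9 CPM in the AS dim libraries. Per kilobase it had the highest level of the 10 genes in every bright library, 424 to 830 RPKM, with Plpp1 next at 307 to 440 RPKM. The log2 fold change of bright over dim of Plpp3 was 3.87 in WT (standard error 0.37, edgeR adjusted p = 0.00011) and 6.38 in AS (standard error 0.24, edgeR adjusted p = 3.54e-08), a 14.6-fold and an 83.2-fold difference. Plpp3 (chromosome 4, 105157347 to 105232764, plus strand) overlaps no other annotated gene.

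Plpp1 was 538, 540 and 605 CPM in the WT bright and 771, 689 and 595 CPM in the AS bright libraries, and 58.3, 48.2 and 26.1 CPM in the WT dim and 5.58, 4.23 and 6.23 CPM in the AS dim libraries. Its dim levels differed between genotypes without overlap, and its bright levels overlapped. Bright over dim was 3.72 on the log2 scale in WT (standard error 0.32, edgeR adjusted p = 6.3e-05) and 6.99 in AS (standard error 0.24, edgeR adjusted p = 3.16e-08), a 13.2-fold and a 127-fold difference. Mouse by mouse, the bright library exceeded the dim library of the same animal 9.22, 11.2 and 23.2 times in WT and 138, 163 and 95.6 times in AS. Its 3′ end overlaps Mtrex on the opposite strand (Plpp1 on chromosome 13, 112800792 to 112867894, plus strand).

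AS over WT in the dim cells gave a log2 fold change of -3.08 for Plpp1 (standard error 0.40, edgeR adjusted p = 0.0172) and of -2.12 for Plpp3 (standard error 0.35, edgeR adjusted p = 0.0206). In the bright cells the values were 0.22 for Plpp1 (standard error 0.20, edgeR adjusted p = 0.557) and 0.42 for Plpp3 (standard error 0.23, edgeR adjusted p = 0.318), and neither passed. Without the dim library of AS mouse 1 both dim changes missed the threshold (edgeR adjusted p = 0.113 each), and without that of AS mouse 3 likewise (edgeR adjusted p = 0.107 for Plpp1, edgeR adjusted p = 0.113 for Plpp3), where 0 and 1 of all genes passed. The genotype effect differed between the subpopulations for 2 of the 10 genes in a fit of all 12 libraries, where 3.77% of 15084 genes did (2.96% higher and 0.815% lower in bright minus dim). The difference, bright minus dim, was 3.33 for Plpp1 (standard error 0.39, edgeR adjusted p = 0.00222) and 2.57 for Plpp3 (standard error 0.42, edgeR adjusted p = 0.00535), and each passed in all 19 alternatives. Over the 10 genes its median was 0.93, beside 0.13 over all genes, and the latter became -0.03 with library sizes alone as the scaling.

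The endothelial markers moved with both phosphatases. Their sum was 758 to 1388 CPM in the WT dim and 234 to 322 CPM in the AS dim libraries, and 10 of the 14 tested passed as lower in AS, at a median log2 fold change of -2.24. Set against these 15 markers in the same library, as log2(CPM + 0.5) minus their mean, Plpp3 stood at 1.94 ± 0.21 in WT dim and 1.88 ± 0.15 in AS dim libraries (SD, n = 3 each), a difference smaller than the spread between mice. Its values were 2.43 ± 0.14 in WT bright and 2.44 ± 0.13 in AS bright libraries. Plpp1 stood at 0.42 ± 0.28 in WT dim and -0.52 ± 0.34 in AS dim libraries without overlap, and at 0.76 ± 0.23 in WT bright and 0.54 ± 0.17 in AS bright libraries. Of the 8 podocyte markers, 3 were lower and 1 was higher in the AS dim cells (6.42% and 2.21% of all genes). The part of either set of markers in the difference was not tested.

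Order of level, per kilobase, differed between the groups. In both bright groups Plpp3, Plpp1 and S1pr1 led in that order by mean and Plpp3 and Plpp1 did not overlap, with mean RPKM of 576, 321 and 100.5 in WT and 807, 391 and 136 in AS. In the bright library of WT mouse 1 Apom (135 RPKM) lay above S1pr1 (67.3 RPKM). In the AS dim cells Sgpl1 led at 77.8 ± 6.86 RPKM, above all libraries of S1pr1 at 27.6 ± 10.3 RPKM and of S1pr4 at 21.9 ± 3.45 RPKM, and the last pair overlapped. In the WT dim cells Apom, S1pr1, Sgpl1, Plpp3 and Plpp1 followed each other by mean with overlap at each step. By the mean of 3 libraries Sphk1 was lowest in both dim groups and S1pr2 in both bright groups. In AS mice 1 and 3, however, Apom lay below Sphk1 in the dim and below S1pr2 in the bright libraries, and Sphk1 and Spns2 overlapped in the AS dim libraries, with means of 1.02 RPKM each.

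The genes most like each of the 10 over the 12 libraries were taken by Pearson's correlation of log2 CPM among 12651 genes, as a description, since libraries of a group share their sort and genotype. For Plpp3 they were Cdh5 (r = 0.998), the VE-cadherin of endothelial junctions, Eng (r = 0.998), an endothelial co-receptor of the TGF-β family, and Rapgef5 (r = 0.997). For Plpp1 they were Slc9a3r2, Fermt2 and Pam (r = 0.995 to 0.996). For Sphk1 they were Ddit4 (r = 0.989), a stress-induced inhibitor of mTOR, Adam15 (r = 0.987) and Cdkn1a (r = 0.982), an inhibitor of the cell cycle. For Apom they were Map7 (r = 0.987), Pecr (r = 0.983) and Pcbd1 (r = 0.982), for S1pr3 Des (r = 0.979), the desmin of mesangial and muscle cells, Fam114a1 and Ptn, and for Sgpl1 Kcnab2, Scml4 and Pld4 (r = 0.992 each). For S1pr4 they were Ap5z1, Ace and Sh3bp2 (r = 0.969 to 0.984), for Spns2 Numb, 2900026A02Rik and Neurl1b (r = 0.980 to 0.982), for S1pr1 Tdrp, Carhsp1 and Snx33 (r = 0.936 to 0.949) and for S1pr2 Srrm1, Ifi27l2a and Gm9701 (r = 0.927 to 0.937). Among the 10 themselves Plpp1 and Plpp3 ran closest (r = 0.989) and Sgpl1 and Plpp3 most opposed (r = -0.958).

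Other genes of the pathway were followed as lists. Of 9 further S1P genes (S1pr5, Sphk2, Sgpp1, Sgpp2, Mfsd2b, Plpp2, Aldh3a2, Abca1 and Abcc1) 0 passed for AS over WT in either subpopulation by edgeR's quasi-likelihood test (9 tested in the dim and 8 in the bright cells, beside 8.63% and 0.452% of all genes). At an unadjusted p under 0.05, 2 did in each subpopulation, and DESeq2 called 2 in the dim and 1 in the bright cells and the likelihood ratio test 1 in each. Of all genes DESeq2 called 2213 in the dim and 1117 in the bright cells, and the likelihood ratio test 1946 and 827. In AS mice 2 of the 8 tested were higher in the bright cells, Sgpp1, an intracellular S1P phosphatase (log2 fold change 1.65), and Aldh3a2, which oxidises the aldehyde that the lyase releases (0.64), and 3 were lower, among them Abca1 (-1.39) and the red cell exporter Mfsd2b (-1.33). These counts stood beside 28.6% and 26.5% of all genes. In WT mice Abca1 was the 1 that passed, also lower in the bright cells (-1.54), where 11.5% of all genes were. Aldh3a2 also had a different genotype effect in the subpopulations (1.41, edgeR adjusted p = 0.0450).

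Ceramide is cut to the sphingosine that the kinases use, and the alkaline ceramidase Acer2 was, like the phosphatases, lower in the AS dim cells. It was 9.86 to 56.1 CPM in the WT dim, 3.40 to 3.89 CPM in the AS dim, 214 to 322 CPM in the WT bright and 475 to 635 CPM in the AS bright libraries. Its log2 fold change of AS over WT was -3.36 in the dim cells (standard error 0.65, edgeR adjusted p = 0.0257), and in the bright cells the value of 0.94 did not pass, though AS and WT did not overlap (standard error 0.22, edgeR adjusted p = 0.0642). The genotype effect differed by 4.32 between the subpopulations (standard error 0.65, edgeR adjusted p = 0.00432). The ceramidases Acer3 and Asah1 were higher in the AS dim cells, Acer3 by 1.18 and the lysosomal Asah1 by 0.74 on the log2 scale, which made 2 higher and 1 lower of 11 genes of ceramide turnover tested, beside 2.21% and 6.42% of all genes. Without the dim library of AS mouse 1, 0 of all genes passed in the dim cells, and without that of AS mouse 3, 1 did. The leukocyte markers were higher in the AS dim cells (18073 to 20848 against 9557 to 16325 summed CPM) and the endothelial markers lower (234 to 322 against 758 to 1388 summed CPM), and their part in the differences of these and the other pathway genes between AS and WT dim cells was not tested. In the bright cells 0 of the 11 passed by genotype with edgeR's quasi-likelihood test, where 0.452% of all genes did. Of the 11, 5 had an unadjusted p under 0.05, and DESeq2 and the likelihood ratio test called 2 each, beside 1117 and 827 of all genes. Of 13 genes of sphingolipid synthesis tested, 0 passed by genotype in either subpopulation with edgeR (both tests) or DESeq2, beside 8.63% (dim) and 0.452% (bright) of all genes by the quasi-likelihood test, and 3 in the dim and 1 in the bright cells had an unadjusted p under 0.05. Bright over dim, 1 of them was higher and 3 lower in WT, and 5 were higher and 3 lower in AS (13.8%, 11.5%, 28.6% and 26.5% of all genes). Sptssa, a small subunit of the enzyme that starts the pathway, was higher in both genotypes (log2 fold change 1.09 in WT and 1.16 in AS), and Cers6, a ceramide synthase, was lower in both (-3.24 and -4.64). The others named were Ormdl1 in WT (-2.28), and in AS another ceramide synthase, Cers4 (1.53), and the desaturase Degs2 (-2.03). Of the 11 genes of ceramide turnover tested, 2 were higher and 4 lower in the bright cells in WT (13.8% and 11.5% of all genes). In AS 4 were higher and 4 lower (28.6% and 26.5% of all genes). Those higher were led by Acer2 (2.97 in WT and 7.24 in AS), with the sphingomyelin synthase Sgms1 in WT (0.79) and the ceramidase Asah2 in AS (3.24). Those lower were led in both genotypes by the sphingomyelin synthase Sgms2 (-2.75 in WT and -3.68 in AS) and Acer3 (-2.32 and -3.51).

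Downstream of the receptors, 14 genes of G proteins and effectors were tested. In the dim cells 2 were lower in AS, where 6.42% of all genes were, Gnai1 (log2 fold change -3.02, edgeR adjusted p = 0.0172), a Gi α subunit through which S1pr1 signals, and Gna11 (-1.24, edgeR adjusted p = 0.0368). Without the dim library of AS mouse 1, 0 of all genes passed this test, and without that of AS mouse 3, 1 did. In the bright cells 0 of 14 passed by genotype with edgeR's quasi-likelihood test, where 0.452% of all genes did. Of the 14, 4 had an unadjusted p under 0.05, and DESeq2 and the likelihood ratio test called 1 each, beside 1117 and 827 of all genes. Bright over dim, 6 were higher and 1 lower in WT (13.8% and 11.5% of all genes) and 9 higher and 2 lower in AS (28.6% and 26.5% of all genes), among them Nos3, the endothelial nitric oxide synthase (2.82 in WT and 5.05 in AS), Gna11 in WT (2.67) and Gnai1 in AS (5.03), while the arrestin Arrb2 was lower in both (-1.92 and -1.82) and Gna13 in AS (-0.72). The genotype effect differed between the subpopulations for Gnai1 (3.09, edgeR adjusted p = 0.00357). Of the LPA genes, whose ligand the same phosphatases degrade, Enpp2, the enzyme autotaxin that makes LPA, was lower in the AS dim cells, at 0.636 to 5.39 CPM against 13.4 to 108 CPM in WT (log2 fold change -4.45, edgeR adjusted p = 0.0359), and the other 3 tested did not pass. Bright over dim, the LPA receptor Lpar4 was the 1 of 3 tested that passed, higher in the bright cells in both genotypes (2.64 in WT and 3.08 in AS), where 13.8% and 28.6% of all genes were. The Enpp2 call, too, was lost without the dim library of AS mouse 1. The proximal tubule markers were lower in the AS dim libraries too (66.1 to 567 against 1874 to 8616 summed CPM), and their part in the Enpp2 difference was not tested.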

How the data were processed

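RNA-seq was done on dim and bright tdT GEC sorted from 3 WT and 3 AS mice (12 libraries). Per the labels and the study's methods, stranded poly-A libraries were read in pairs, checked with FastQC 0.11.5, trimmed with cutadapt and Trimmomatic and aligned with STAR 2.6.0c to GRCm38.p5 with Gencode M16. The authors deposited whole-number counts per gene, not normalized, in a manually filtered table for each subpopulation; which strand was counted is not given in the sources used here. The deposited RPKM of the authors, and their own fold changes and statistics of AS over WT, were not used. RPKM were recomputed from the counts and the merged exon length of Gencode M21, since the deposited length exceeded the gene's span for 5456 genes. ERCC spike-ins (92 in each table, 0.0286% to 0.282% of counts) were left out.

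Counts were tested with edgeR 4.0.16 in R 4.3.3 (filterByExpr, TMM, version 4 quasi-likelihood fit, two-sided), with Benjamini-Hochberg adjustment over every gene in the fit and a threshold of 0.05. AS over WT used the 6 libraries of a table, bright over dim the 6 libraries of a genotype over genes in both tables, and the difference of the genotype effects all 12. Standard errors follow from the fold change and its F statistic. The tests were checked on simulated data. No replicate pair matched within sampling noise (12 pairs, chi-square over its degrees of freedom 29.5 to 104). By the labels, a dim and a bright library with one number come from one mouse, and their deviations from the group means correlated at 0.102 to 0.274 in WT and 0.0796 to 0.385 in AS. WT and AS mice share only numbers. Alternatives were RLE normalization, library sizes alone, no filter, DESeq2 1.42.0, the likelihood ratio test, a replicate block, all 12 libraries in one fit and each library left out. The version 3 quasi-likelihood fit was added after the values had been seen. Genes were named as follows: the 10 members, the 2 strongest per direction of each pathway list past the threshold with an average logCPM above 1, and the 3 most correlated with each member. The members and lists were chosen with earlier results of these data known. At these depths a gene at 3 counts or fewer counted as undetected, a floor that no member reached in any library.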

Additional observations from a re-analysis of the deposited data

Results flagged for a closer look

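The effect of genotype on Plpp1 differed between the subpopulations, by 3.33 on the log2 scale in bright minus dim (edgeR adjusted p = 0.00222, quasi-likelihood test over all genes). All 3 AS dim libraries were below all 3 WT dim libraries, while AS and WT overlapped in the bright cells. The same test gave 2.57 for Plpp3 (edgeR adjusted p = 0.00535), where all 3 AS libraries were below the WT libraries in the dim cells and above them in the bright cells. The endothelial markers differed in the same way, with 11 of 15 past the threshold at a median of 2.65. So did the podocyte markers, with 5 of 8 at a median of 2.18, where 2.96% of all genes were higher. The part of either set of markers was not tested.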

How the results depend on the processing

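Over the alternatives, 690 of the values of single S1P genes kept their direction and their side of the threshold, 16 lost the threshold, 8 gained it and 16 changed sign. All 16 sign changes came from leaving out 1 library and concerned values that had not passed. Their ranges with 1 library left out were -0.16 to 0.71 for S1pr2, -0.00196 to 0.27 for Sgpl1 and -0.20 to 0.75 for Spns2 (AS over WT, bright), -0.96 to 0.24 for S1pr3 (AS over WT, dim), -3.10 to 0.027 (WT) and -2.85 to 1.93 (AS) for Apom in bright over dim, and -0.49 to 0.44 for S1pr2, -0.77 to 0.18 for Sphk1 and -1.44 to 3.33 for Apom in the difference of genotype effects. For AS over WT in the bright cells, 65 genes passed, 39 with no filter, 1117 with DESeq2, 827 with the likelihood ratio test, 0 with the version 3 fit, 139 with all 12 libraries in one fit and 0 to 281 with 1 library left out. Members called there were 0, but 2 with DESeq2, 2 with the likelihood ratio test and 0 to 1 with 1 library left out. In the dim cells 1263 genes became 2213, 1946, 582 and 2106 in the order DESeq2, likelihood ratio, version 3 and all 12 libraries, and 0 to 1825 with 1 library left out, where 0 to 3 members passed. For the difference of effects 569 genes became 1186 with DESeq2, 1114 with the likelihood ratio test and 252 to 857 with 1 library left out (2 members throughout). Bright over dim gave 2534 to 3435 genes and 5 to 7 members in WT, and 6651 to 7490 genes and 9 members in AS, with 1 library left out. A group left with 2 libraries has its spread estimated with the other group's. The replicate block gave 16 genes (bright) and 494 genes (dim) for AS over WT, where numbers do not pair mice (correlation of deviations -0.151 to 0.124), and 877 for the difference of effects; Apom in the dim cells then missed the threshold (-5.06, edgeR adjusted p = 0.0732) and in WT bright over dim passed it, and it changed no other call of the 10. The causes were not tested. Depth limits Sphk1 in dim cells (10 to 90 counts) and Apom in AS (5 to 164).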
